A study of Homo sapiens with 8 samples.

Results

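LARP6 eCLIP clusters that lie near the 3′ ends of protein-coding genes were described here. A region was taken when its midpoint lay inside a protein-coding gene and on its strand, at most 500 nt from the gene's outermost 3′ end and more than 500 nt from its 5′ end. This gave 8417 of 178461 regions. Of these, 1699 came from control replicate 1, 1882 from control replicate 2, 1656 from TGFβ1 replicate 1 and 3058 from TGFβ1 replicate 2. The lists that the authors made from both replicates of a condition held 42 of 627 control peaks and 80 of 1008 TGFβ1 peaks near 3′ ends, in 30 and 46 genes.

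The cells were wild-type human hepatic stellate cells, a liver cell type that turns into collagen-secreting myofibroblasts during fibrosis. Control cells carry the labels Untreated and DMSO, so the vehicle is uncertain, and treated cells received 5 ng/ml of TGFβ1, the cytokine that drives this change. Each condition had 2 libraries immunoprecipitated with an antibody to LARP6 and 2 size-matched inputs, all from cells crosslinked with UV light of 254 nm. Nothing states that replicates were separate cultures, so their spread may be technical, and the sources used here do not give the number of cell lines or donors.

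LARP6, of the La-related family of RNA-binding proteins, is known to bind a stem-loop in the 5′ untranslated region of type I collagen messages. In eCLIP, RNA bound to a protein is crosslinked, cut, immunoprecipitated and sequenced, and clusters of reads are compared with an input cut from the same gel range. The 3′ untranslated region, which usually fills the last stretch of a messenger RNA, is where many RNA-binding proteins and microRNAs bind. The gene table used here holds outer bounds and no exons, so a position is given as a distance from the gene's end and not as coding or untranslated.

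Every cluster carries the authors' log2 fold over input and their −log10 p-value, and is called enriched here at 3 or more in both. Clusters neighbouring each other can belong to 1 binding site, so they are counted as clusters and not as replicates. The files hold no read counts, which leaves the depth unknown. Tested clusters numbered 51273, 39880, 31137 and 54536 in control 1, control 2, TGFβ1 1 and TGFβ1 2, an order kept throughout. Tested clusters lay in 12 of 16 stellate cell and fibroblast markers, with 387, 455, 438 and 548 clusters, while DES, LRAT, RGS5 and THY1 had none. No cluster lay in any of 11 hepatocyte markers. Cholangiocyte markers had 7, 7, 16 and 28 clusters in 6 of 8 genes with EPCAM and KRT19 at 0, endothelial markers 0, 0, 0 and 2 in 1 of 8 genes, and leukocyte markers 2, 4, 2 and 4 in 1 of 10 genes. Whether cells of these other types were present, and what part they had in the results below, was not tested.

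Clusters near 3′ ends were more often enriched than other clusters in protein-coding genes, in each of the 4 libraries. Enriched 3′ end clusters numbered 36, 58, 70 and 141, in 27, 39, 45 and 87 genes. They made up 2.12%, 3.08%, 4.23% and 4.61% of the 3′ end clusters, against 0.913%, 1.85%, 2.45% and 3.51% of all other clusters in protein-coding genes. Over all tested clusters of any kind, the enriched share was 1.21%, 2.09%, 2.69% and 3.64%. The excess near 3′ ends over the rest of protein-coding genes was 1.33 ± 0.303 percentage points (SD, n = 4 libraries), positive in 4 of 4. An exact two-sided sign-flip permutation test gave p = 0.13, the smallest p that 4 libraries allow, and 0.3125 after Benjamini-Hochberg adjustment over the 5 tests made. Other clusters in protein-coding genes include those in introns, which the gene table cannot separate.

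The mirror window at the 5′ end was enriched less often, with 1.91%, 1.91%, 2.20% and 3.05% of its clusters. The 3′ end share exceeded it by 0.21, 1.17, 2.02 and 1.56 percentage points, a mean of 1.24 ± 0.769 (SD, n = 4). The exact two-sided sign-flip permutation test again gave p = 0.13, adjusted p = 0.3125. The first of these differences was small and turned to −0.41 at a −log10 p limit of 5 and to −0.11 with strand from clusters alone, and the 95% Wilson intervals of control 1 overlapped, from 1.53% to 2.92% at the 3′ end and from 1.5% to 2.41% at the 5′ end. These intervals cover counting error only.

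The higher enriched share was not limited to the last 500 nt. Clusters between 500 and 1000 nt from the 3′ end were enriched in 2.24%, 4.13%, 4.60% and 7.31% of cases, each above the share in the last 500 nt. Between 1000 and 1500 nt the shares were 2.96%, 4.08%, 4.99% and 6.40%. From 1500 to 2000 nt they were 1.69%, 1.72%, 2.58% and 3.51%, and beyond 2000 nt 0.682%, 1.61%, 2.20% and 3.16%. The raised share thus ran at least over the last 1500 nt of genes in all 4 libraries. From 1500 to 2000 nt it was still clearly above the share beyond 2000 nt in control 1, and slightly above it in the other libraries. The stretch near the end itself was not the peak of the raised share.

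**Figure D1:**
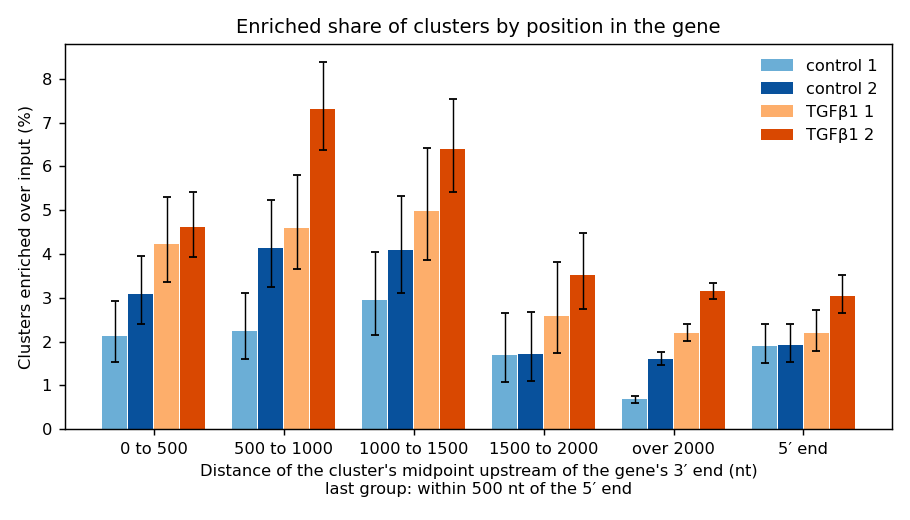
Percentage of tested clusters enriched over input (y axis) by distance upstream of the gene's 3′ end in nt (x axis), with the 5′ end window as the last group, for the 4 immunoprecipitated libraries. Bars are shares, error bars 95% Wilson intervals that cover counting error only. The last 500 nt stood at 2.12% to 4.61%, the next 2 distance groups at 2.24% to 7.31%, and clusters beyond 2000 nt at 0.682% to 3.16%.

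Within the last 500 nt, enriched clusters lay mostly between 100 and 300 nt from the end. This band held 66.7%, 65.5%, 65.7% and 58.2% of the enriched clusters and 48.2%, 47.6%, 47.7% and 47.3% of the others. By bins of 100 nt, the enriched share was highest at 200 to 300 nt in every library, with 2.99%, 5.62%, 6.73% and 5.99%. In control 1 the bin at 100 to 200 nt was nearly level, at 2.82%, and each of these 2 bins held 12 enriched clusters. Some enriched clusters at 200 to 300 nt adjoin each other in 1 gene, as in CTTN and S100A11. The enriched share was 0.559%, 1.32%, 2.05% and 2.58% in the last 100 nt. Closer than 50 nt to the end there were 20, 26, 24 and 43 tested clusters, of which 1 was enriched, in TGFβ1 replicate 2. In the first 500 nt past the annotated end, on the same strand and outside protein-coding genes of that strand, 17, 9, 5 and 15 clusters were tested and 0 were enriched. On the other strand of the window, 19, 15, 5 and 12 were tested and 1 was enriched, also in TGFβ1 replicate 2. These clusters are too few to compare their enriched share with that of the window.

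**Figure D2:**
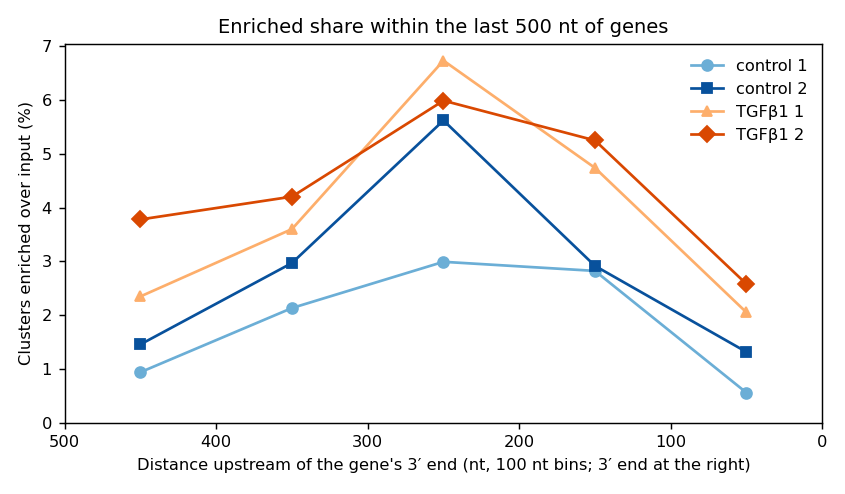
Percentage of clusters enriched over input (y axis) in bins of 100 nt by distance upstream of the gene's 3′ end (x axis, end at the right), 1 line per library, bins with 179 to 743 clusters. All 4 lines are highest at 200 to 300 nt, between 2.99% and 6.73%, and the last 100 nt lies between 0.559% and 2.58%. Control 1 is nearly as high at 100 to 200 nt, with 2.82%.

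Enriched 3′ end clusters had a median width of 69, 61, 56.5 and 55 nt. Enriched clusters elsewhere in protein-coding genes had 36, 40, 46 and 47 nt. Those at 5′ ends had 27, 38, 64.5 and 65 nt, wider than the 3′ end ones in both TGFβ1 libraries. Enriched or not, 3′ end clusters had 55, 52, 54 and 54 nt, and other clusters in protein-coding genes 49, 47, 48 and 47 nt. The median log2 fold of 3′ end clusters was 0.38, 0.85, 0.62 and 0.72, against 0.38, 0.85, 0.94 and 0.81 for the others. In both control libraries each median equals the most frequent fold, which 17.0% to 29.1% of the clusters share, so these ties fix the control differences at 0 and a shift could not show there. The median difference was −0.10 ± 0.152 (SD, n = 4), above 0 in 0 of 4 libraries, with p = 0.5 in the exact two-sided sign-flip permutation test and 0.5 adjusted. Clusters below their input were also more frequent near 3′ ends, at 32.3%, 30.7%, 26.1% and 26%, than among the others, at 26.7%, 26%, 18.2% and 20.5%.

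The lists from both replicates named 49 genes. Those with a 3′ end peak in both lists were CTTN, TMBIM1, TMEM258, NPC2, SHISA5, MSMO1, ERAL1, UHRF2, PRMT5, S100A11, TSPAN4, E2F4, NUMA1, RPRD1B, CTSF, TSPAN17, ARHGEF10, ATP6V0D1, ADRA2C, PTX3, PTGES2, PPP1R15A, TMEM59L, PIEZO1, PKM, ATG9A and NCKAP5L, 27 in all. BDKRB2, IGFBP6 and LY6E had one in the control list alone. ACTR1B, AP3D1, ATF5, BUD31, C18orf32, CTNNB1, EMD, KDELR2, KEAP1, MCRIP1, NPM3, PTPRN, RNF121, SNX17, SURF4, TMEM160, TTC3, TXNDC5 and UBXN6, 19 genes, had one in the TGFβ1 list alone. Among protein-coding genes with a 3′ end cluster in both libraries of a condition, 30 of 813 (3.69%) had a listed 3′ end peak in control and 46 of 951 (4.84%) in TGFβ1.

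In 27 of the 30 control genes (90%) and 40 of the 46 TGFβ1 genes (87.0%), every listed peak of the gene lay near the 3′ end. Peaks of a single position class were usual in these lists: of the genes with a peak beyond both windows, 92.7% and 91.9% had no peak near either end, and of those with a 5′ end peak 67.9% and 66.7% had no other. None of the 30 and 46 genes had a listed peak within 500 nt of its 5′ end, where 28 of 210 control and 54 of 373 TGFβ1 protein-coding genes with a listed peak had one. Neighbouring peaks came down to few sites: joined over gaps of at most 20 nt, the 42 and 80 peaks formed 30 and 48 sites, and only ATP6V0D1 and ATF5 had 2. The median distance of a listed peak from the 3′ end was 244 nt in control and 254 nt in TGFβ1. The median log2 fold of the listed 3′ end peaks was 4.17 and 4.51, below the 5.69 and 5.44 of the listed 5′ end peaks. It was close to the 4.16 and 4.44 of the listed peaks beyond both windows. The highest 3′ end peaks had 6.02 and 7.28, both in CTTN, against 9.17 and 9.31 at 5′ ends and 8.45 and 9.49 beyond both windows.

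The strand of CTTN, ARHGEF10, SNX17, NCKAP5L, AP3D1, KDELR2 and LY6E came from the clusters themselves, since the reference gave none. Another gene covers the listed peaks of some of the genes. PNKD, PRMT5-AS1, IL18BP, VEPH1, PTCD1 and CHAF1A lie opposite TMBIM1, PRMT5, NUMA1, PTX3, BUD31 and UBXN6. The readthrough gene BLOC1S5-TXNDC5 shares the strand of TXNDC5, so its reads cannot be told apart from those of TXNDC5, and MIR4709 overlaps NPC2.

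The values that follow are, per library, the highest log2 fold over input among the clusters that overlap a gene's highest listed 3′ end peak. Coordinates are 1-based on GRCh38. The highest 3′ end peak of both lists lay in CTTN, which encodes cortactin, an actin-binding protein of branched actin networks. At chr11:70436347-70436361, 221 nt from the 3′ end, the log2 fold was 5.59 and 5.41 for control and 5.91 and 7.68 for TGFβ1. The authors' lists cut this place into 4 control and 3 TGFβ1 peaks, with folds of 5.45 to 6.02 and of 6.33 to 7.28. The enriched clusters within the last 500 nt of CTTN lay 221 to 291.5 nt from the end, and next to them, at 347 to 354.5 nt, the folds were only 1.73 to 2.51. The gene had 26, 30, 17 and 19 tested clusters in all and no enriched one elsewhere.

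S100A11, a small calcium-binding protein, had a similarly sharp site at chr1:152032715-152032733, 218 nt from the end. Its log2 folds were 4.08 and 5.24 for the control libraries and 5.44 and 6.22 for TGFβ1. The fold was lower for clusters further from the end: in TGFβ1 replicate 1, clusters at 218, 238.5, 256 and 270 nt had 5.44, 4.87, 4.36 and 3.92. Between this site and the gene's end, clusters at 73.5, 93.5 and 98 nt were below input in control replicate 2 and both TGFβ1 libraries, at −1.46, −1.38 and −1.30. A cluster of control replicate 2 at 144.5 nt, nearer to the site, had 0.14, and control replicate 1 had no tested cluster on that side. ARHGEF10, a guanine nucleotide exchange factor, had 4.00 and 4.31 in control and 4.37 and 5.68 in TGFβ1. It was the only enriched place of that gene in 3 of the libraries, out of 57, 51, 23 and 30 tested clusters, and control replicate 1 had 1 more. NUMA1, which organises spindle poles, had 4.00, 4.69, 3.66 and 5.17.

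**Figure D3:**
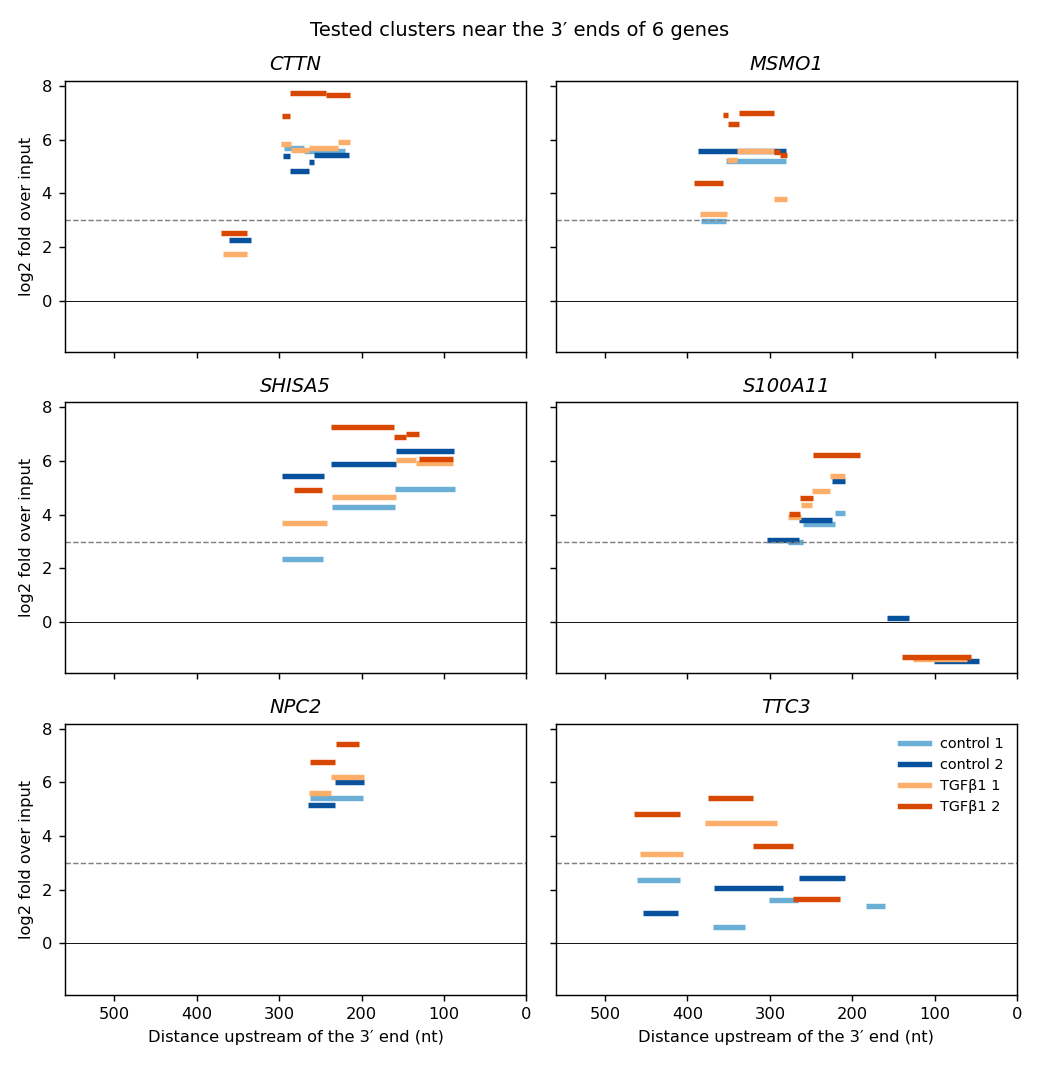
Tested clusters near the 3′ ends of 6 genes, each drawn as a horizontal segment over its extent (x axis, distance upstream of the 3′ end in nt) at its log2 fold over input (y axis), coloured by library. The dashed line marks the log2 fold of 3. CTTN, NPC2 and S100A11 show narrow stacks shared by the 4 libraries near 200 to 300 nt, and TTC3 shows every control segment below the line and the TGFβ1 segments above it except 1 of replicate 2, at 1.65.

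The genes below are ordered by what they are known to do, which is an order of description and was not tested. NPC2, the lysosomal protein that carries cholesterol, had log2 folds of 5.41 and 6.0 in control and 6.19 and 7.44 in TGFβ1 at chr14:74480139-74480165. Both TGFβ1 libraries were above both control libraries, and of the gene's 3, 5, 4 and 5 tested clusters 1, 2, 2 and 2 were enriched, all of them near the 3′ end. MSMO1, a sterol methyl oxidase of cholesterol synthesis, had 5.20 and 5.58 in control and 5.25 and 6.91 in TGFβ1 at chr4:165342812-165342824, with overlapping conditions. Its site was 1 peak in the control list and 5 adjoining peaks in the TGFβ1 list, the most of any gene. ATP6V0D1, a subunit of the proton pump that acidifies lysosomes, had 4.82 and 3.38 in control and 5.66 and 7.29 in TGFβ1 at chr16:67438366-67438456. Its list fold was 4.13 in control and 6.48 in TGFβ1, and a second TGFβ1 site lay at chr16:67438253-67438333. CTSF, a lysosomal protease, had 4.12 and 4.26 in control and 2.39 and 4.58 in TGFβ1, so TGFβ1 replicate 1 was not enriched there. PTGES2, a prostaglandin E synthase, had 3.84, 3.58, 4.83 and 6.18.

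SHISA5, an endoplasmic reticulum membrane protein linked to apoptosis, had 4.95 and 6.38 in control and 6.03 and 7.01 in TGFβ1 at chr3:48468011-48468034. Its enriched stretch was broad, with clusters centred from 110 to 271 nt, and the gene had further listed peaks outside the window, 2 in control and 3 in TGFβ1. TMBIM1, a membrane protein of lysosomes and endosomes, was among the few with a lower mean in TGFβ1, with 6.30 and 5.40 in control and 5.21 and 5.96 in TGFβ1 at chr2:218274367-218274380. TMEM258, a subunit of the oligosaccharyltransferase, had 5.56, 6.03, 5.81 and 6.77 at chr11:61789211-61789235, and 2 control and 4 TGFβ1 peaks elsewhere in the gene. The tetraspanin TSPAN17 had 3.38, 4.93, 5.08 and 6.95 at chr5:176658819-176658907. Its relative TSPAN4 had 4.31, 4.77, 5.01 and 4.44 at chr11:866962-867046, nearly level across libraries. ADRA2C, an adrenergic receptor, had 3.79, 4.26, 5.20 and 6.15 at chr4:3768175-3768254, in a gene of 2142 nt. PIEZO1, a mechanosensitive channel, had 3.04, 3.51, 2.96 and 4.94 at its 3′ end, where TGFβ1 replicate 1 stayed just under the limit.

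UHRF2, a ubiquitin ligase that binds modified DNA, had 4.52 and 4.93 in control and 5.26 and 7.02 in TGFβ1 at chr9:6506751-6506834. PRMT5, an arginine methyltransferase that acts on splicing proteins and histones, had 4.41 and 5.07 in control and 5.08 and 6.54 in TGFβ1 at chr14:22920649-22920678. ERAL1, which assembles the mitochondrial small ribosomal subunit, had 4.72, 5.33, 5.04 and 6.18 at chr17:28860879-28860929. In the first 2 of these genes both TGFβ1 values exceeded both control values, in PRMT5 narrowly, and in ERAL1 the conditions overlapped. E2F4, a cell cycle transcription factor, had 3.96, 4.55, 4.14 and 4.61 at chr16:67198455-67198500. RPRD1B, which binds the tail of RNA polymerase II, had 3.96, 4.75, 3.75 and 5.75 at a site 84.5 nt from the end. ATG9A, the autophagy lipid scramblase, had 2.67, 3.78, 3.66 and 5.28 at the place nearest to an end among the genes' highest peaks, 62 nt. The conditions overlapped in all 3 of these genes. In ATG9A the control replicate 2 value came from a cluster at the peak's edge, 127 nt from the end. The clusters of that library nearer to the end, at 51 and 75.5 nt, had 3.39, below both TGFβ1 values.

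Enriched 3′ end clusters recurred across libraries in a core of genes. A total of 97 genes had one in any library, of 2659 genes with a tested 3′ end cluster. Of these, 21 had one in all 4 libraries and 9 in 3, and all 30 of them were in the lists. A further 20 genes had one in 2 libraries, of which 14 were listed, and 47 had one in a single library, of which 5 were listed. Of the 36, 58, 70 and 141 enriched 3′ end clusters, the share that overlapped an enriched cluster of the other replicate was 88.9%, 58.6%, 94.3% and 57.4%. The same shares over all enriched clusters were 82.4%, 62.3%, 89.1% and 48.6%.

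Between conditions, the control 3′ end peaks were nearly all found again. At least 1 nt was shared with a TGFβ1 listed peak in 39 of 42 control peaks, which is 92.9% with a 95% Wilson interval of 81.0% to 97.5%, and 79.6% over all control peaks. From the other side, 54 of 80 TGFβ1 peaks (67.5%, 56.6% to 76.8%) overlapped a control peak, and 61% of all TGFβ1 peaks. Both intervals count neighbouring peaks of 1 site as separate. With peaks merged to sites, the shares near 3′ ends were 90% for control and 58.7% for TGFβ1. The TGFβ1 share then no longer exceeded the 61% over all TGFβ1 peaks, which were not merged. Only 3 control 3′ end peaks overlapped no enriched cluster in either TGFβ1 library, against 10.4% of the whole control list. For TGFβ1 peaks this number was 18, against 24.6% of the whole TGFβ1 list. In 42 of 42 control and 79 of 80 TGFβ1 peaks a cluster had been tested in both libraries of the other condition, so a missing call rarely meant a missing cluster. The TGFβ1 overlap moved with the libraries used: with the enriched clusters of replicate 2 alone in place of the TGFβ1 list, it was 42.6%.

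The share of 3′ end clusters that were enriched was 2.60% ± 0.681 in control and 4.42% ± 0.271 in TGFβ1 (SD, n = 2 each), a difference of 1.82 percentage points. The conditions did not overlap, and the exact two-sided permutation test gave p = 0.33, the smallest that 2 against 2 libraries allow (adjusted p = 0.417). The enriched share over all tested clusters, given above, was also higher in both TGFβ1 libraries. Clusters near 3′ ends made up 3.57%, 5.02%, 5.59% and 5.87% of clusters in protein-coding genes, 1.44 percentage points more in TGFβ1, again with p = 0.33 in the exact two-sided permutation test and 0.417 adjusted. This difference moved with the control libraries, to 0.71 without control replicate 1 and 2.16 without control replicate 2.

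Gene by gene, the highest 3′ end peak tended to have higher folds in TGFβ1, as did listed genes in general. Both TGFβ1 libraries were above both control libraries in 27 of the 49 genes, against 53.8% of all 394 protein-coding genes with a listed peak and values in all libraries. Both control libraries were above in 1 gene, BDKRB2, against 4.57%. The conditions overlapped in 20, and AP3D1 had no cluster at the place in control replicate 1. The choice of peak bears on this order, since the highest peak came from the TGFβ1 list in 45 of the 49 genes. Among the 27 genes with a 3′ end peak in both lists, TGFβ1 was above in 12 and control in 0, against 42.3% and 3.85% of the 182 protein-coding genes found in both lists. The median difference in log2 fold, TGFβ1 minus control, was 1.04 over the 48 genes with values in all libraries and 1.07 over all listed protein-coding genes. TGFβ1 replicate 2 carried much of this: it was the highest library in 35 of the 49 genes and in 70.1% of all listed genes, and with TGFβ1 replicate 1 alone the median difference was 0.52 for the 3′ end genes and 0.57 for all.

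**Figure D4:**
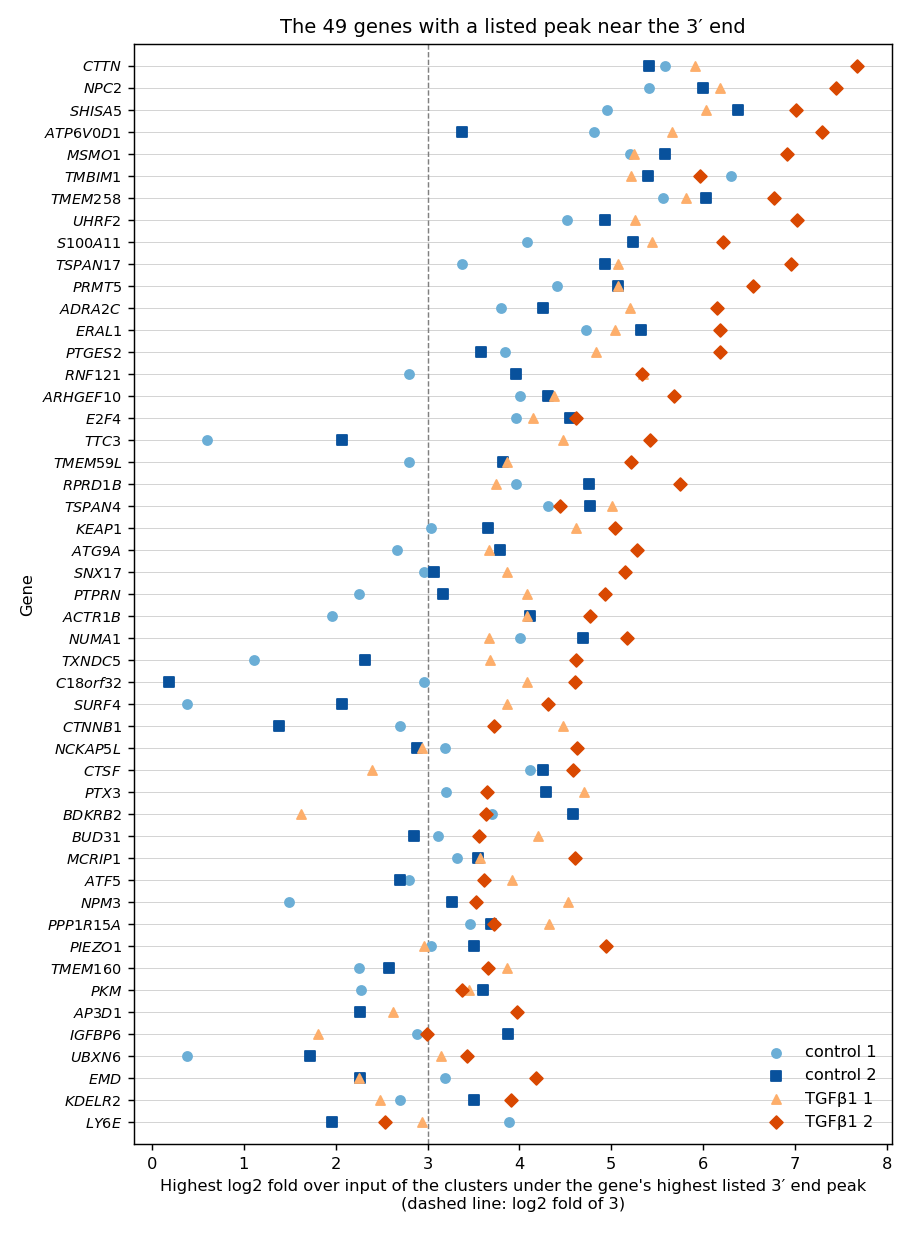
Highest log2 fold over input of the clusters under each gene's highest listed 3′ end peak (x axis) for the 49 genes (y axis, ordered by list fold), with 1 point per library. The dashed line marks the log2 fold of 3. TGFβ1 replicate 2 is the highest point in 35 genes, and in 27 genes both TGFβ1 points lie right of both control points.

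The TGFβ1 3′ end peaks that overlapped no enriched control cluster were led by TTC3, a ubiquitin ligase gene. Its log2 folds were 0.60 and 2.07 in control and 4.48 and 5.42 in TGFβ1 at chr21:37202743-37202797, 348 nt from the end, where 4, 3, 2 and 4 clusters were tested in the window. RNF121, another ubiquitin ligase gene, had 2.79, 3.35, 4.20 and 5.22 at chr11:71997470-71997524. Its neighbouring and higher peak at chr11:71997360-71997469 had 2.79, 3.96, 5.35 and 5.34, and control replicate 2 was enriched there. In RNF121 both TGFβ1 values thus stood above a control library that was itself called at the neighbouring place. SNX17, which returns integrins and other receptors from endosomes, had 2.96, 3.07, 3.87 and 5.15 at chr2:27377019-27377119. PTPRN, a secretory granule protein, had 2.25, 3.17, 4.08 and 4.93 at chr2:219289912-219289970. In these last 2 genes a control library passed the fold limit and missed the p limit, so they differ from TTC3, where both control libraries were well below. C18orf32 had 2.96, 0.18, 4.08 and 4.60, with a wide gap between the control libraries.

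TXNDC5, a protein disulfide isomerase, had 1.12 and 2.32 in control and 3.68 and 4.62 in TGFβ1 at chr6:7881992-7882026. Among listed peaks inside the window this was the closest to its limit, at 492 nt, and the gene had 1 control and 3 TGFβ1 peaks further in. SURF4, a cargo receptor that carries proteins out of the endoplasmic reticulum, had 0.38, 2.07, 3.87 and 4.31 at chr9:133361708-133361793. CTNNB1, the gene of β-catenin, had 2.70, 1.38, 4.48 and 3.72 at chr3:41240319-41240383, 92 nt from the end. Neither SURF4 nor CTNNB1 had an enriched control cluster near its 3′ end. UBXN6, a cofactor of the VCP unfolding enzyme, had 0.38, 1.72, 3.14 and 3.42. ATF5, a stress-induced transcription factor, had 2.79, 2.70, 3.92 and 3.61 at chr19:49933713-49933738 and a second site nearer to the end. Its control −log10 p-values were 5.98 and 8.03, so only the fold limit was missed there. In all 5 of these genes both TGFβ1 values were above both control values. None of these TGFβ1 peaks overlapped an enriched control cluster, so this order follows largely from how they were grouped. KEAP1, which marks the transcription factor NRF2 for degradation, had 3 adjoining TGFβ1 peaks and values of 3.04, 3.65, 4.62 and 5.05, enriched in control replicate 2. NCKAP5L, with 3 TGFβ1 peaks and 1 control peak, had 3.19, 2.89, 2.94 and 4.63, so the conditions overlapped.

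The 3 control peaks without an enriched TGFβ1 cluster were modest. BDKRB2, the bradykinin receptor, had 3.70 and 4.58 in control and 1.62 and 3.63 in TGFβ1 at chr14:96243908-96244010, with 23, 19, 1 and 1 tested clusters in the whole gene. TGFβ1 replicate 2 passed the fold limit there and missed the p limit, with a −log10 p-value of 2.81. It lay only narrowly below control replicate 1. IGFBP6, a secreted binder of insulin-like growth factors, had 2.88, 3.88, 1.81 and 2.996, and was enriched in control replicate 2 alone. TGFβ1 replicate 2 missed the fold limit narrowly there, with a −log10 p-value of 7.76. LY6E, a membrane protein, had 3.88, 1.96, 2.94 and 2.53, and was enriched in control replicate 1 alone. In IGFBP6 and LY6E the conditions overlapped.

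Of 21 gene lists that cover stellate cell biology and housekeeping groups, few held a gene with a listed 3′ end peak. No gene whose symbol starts with COL was among the 49. Fibrillar collagens had a 3′ end cluster in both libraries of a condition in 1 gene in control and 2 in TGFβ1, and 0 listed 3′ end peaks, although 4 and 5 of the 9 genes had listed peaks elsewhere. Other extracellular matrix proteins had 0 of 19 and 0 of 23, contractile and cytoskeletal proteins 0 of 21 and 0 of 27, and cytosolic ribosomal proteins 0 of 23 and 0 of 30. Collagen processing had 0 of 11 in each condition, and 0 of 8 and 0 of 10 integrin and focal adhesion genes had one. Read against the 3.69% and 4.84% over all genes, which also come to few genes in lists of this size, these counts are no result about the lists. Endoplasmic reticulum genes had 0 of 17 in control and 2 of 17 in TGFβ1, SURF4 and TXNDC5. The lysosome list had 1 of 13 and 1 of 11, NPC2. Glycolysis had 1 of 4 and 1 of 7, PKM, whose pyruvate kinase site had 2.28 and 3.61 in control and 3.45 and 3.37 in TGFβ1. The stress transcription factor list had 0 of 3 and 1 of 5, ATF5. These lists do not hold every gene of their kind. CTSF, ATP6V0D1 and TMBIM1 are outside the lysosome list, CTTN outside the contractile and cytoskeletal list, and SHISA5 and TMEM258 outside the endoplasmic reticulum list.

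The 500 nt limit cut through a continuous run of sites. Just inside lay TXNDC5 at 492 nt with a list log2 fold of 4.40, NUMA1 at 482.5 nt with 4.41 in TGFβ1 and at 490.5 nt with 4.36 in control, and AP3D1 at 480 nt with 3.43. Just outside, in the TGFβ1 list, lay EXOC7 at 503 nt with 4.28, SERF2 at 515.5 nt with 3.47, ZDHHC16 at 524 nt with 4.69 and BASP1 at 525 nt with 5.22. TXNDC5 and AP3D1 had a peak on either side of the limit, at 529.5 and 549.5 nt.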

How the data were processed

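Peak lists of 4 LARP6 immunoprecipitated libraries and 2 lists made by the authors from both replicates were used. Inputs were not analysed on their own, and 1 gene outside the lists is not reported here. Per the submitters' processing notes, cutadapt, STAR, UMI-tools and GRCh38 were used. For the peak caller, input normalisation and replicate rule, nothing is given in the sources used here. In these lists without header, 1 deposited column was taken, from its values, to be the log2 fold over input computed by the authors, and another to be the −log10 p-value of the authors' test, capped at 400. The lists from both replicates held no peak under 3 in either.

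The 20052 protein-coding genes are those of the RefSeq table for GRCh38.p14. Strand came from the reference promoters for 15841, from the majority of clusters lying in that gene alone for 1380 and was unknown for 2831, which were left out. Of 5205 genes with both sources, 99.4% had the same strand. A region near several 3′ ends went to the nearest, which concerned 61 of 8295 clusters, and 1273 clusters also lay in another gene of any kind.

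Peaks were called per library, so the libraries' values at 1 place are set side by side and not tested. Exact permutation tests used libraries as units. Python 3.11.15, pandas 2.3.3 and SciPy 1.17.1 were used, and placing, overlap, merging and tests were checked on simulated regions. The members, gene lists and rules were chosen with earlier results of these data known. All genes with a listed 3′ end peak are named. Detail went to the 12 highest genes and the 6 with most peaks of each list, the 6 highest peaks without an enriched cluster in the other condition, up to 4 members of a gene list, and the peaks nearest the limit. The remaining listed genes given with values, ARHGEF10, NUMA1, CTSF, PTGES2, PIEZO1, RPRD1B, CTNNB1 and UBXN6, were chosen after their values were seen. Alternatives varied the enrichment limits, window, placing, strand, overlap, merging and libraries.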

Additional observations from a re-analysis of the deposited data

How the results depend on the processing

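No mean or pooled value changed direction under the alternatives run. The excess of the enriched share near 3′ ends over other protein-coding clusters ranged from 1.07 to 1.97 percentage points over 15 alternatives, that over 5′ ends from 0.77 to 1.74 over 12 (with control replicate 1 below 0 at the −log10 p limit of 5 and with strand from clusters alone), and the TGFβ1 minus control difference from 1.31 to 2.49 over 13. The share of clusters near 3′ ends differed by 0.71 to 2.74 over 10. The counts of listed peaks moved with the limits. The control list held 26 peaks near 3′ ends at a log2 fold limit of 4, 26 at a −log10 p limit of 5, 22 in a window of 250 nt and 81 in one of 1000 nt. The TGFβ1 list held 39 and 175 in those windows and 46 when the whole list was merged to sites before their midpoints were placed (48 when only the 3′ end peaks were joined), and leaving out 1 library gave 70 to 141. The share of TGFβ1 peaks that overlapped a control peak was 51.6% at a fold limit of 4, 53.3% at a −log10 p limit of 5, 54.5% when replicated peaks were chosen by overlap of enriched clusters, and 42.6% to 72.5% when 1 library was left out. The causes of these moves were not tested, beyond the number of peaks that each limit or window leaves by its construction. With the replicate number as a replicate block, the differences stayed at 1.82 and 1.44 percentage points, with p = 0.5 in the exact permutation test, the smallest that 2 pairs allow. Nothing states that the numbers pair the libraries. The fold limit of 2 left the lists as they are, since they hold no peak under 3. Further alternatives were chosen after seeing the data: the excess over other clusters was 1.49 percentage points within genes that had both kinds of cluster, 1.63 without COL genes and 1.81 by the log2 fold alone, positive in all 4 libraries each time. The median with TGFβ1 replicate 1 alone was also added then.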

Other observations

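Outside the lists, genes with an enriched 3′ end cluster in 2 libraries included DDIT3, EXOC7, MFGE8, PLEKHO2 and TCEA2. EXOC7, a subunit of the exocyst that tethers secretory vesicles, was the only one of these enriched in both libraries of 1 condition. Its highest log2 folds near the 3′ end were 2.25 and 1.00 in control and 3.87 and 3.05 in TGFβ1, and its listed TGFβ1 peak lay at 503 nt. DDIT3, a stress-induced transcription factor, had 1.60, 4.17, 2.28 and 4.08, so replicate 2 was enriched in both conditions and replicate 1 in neither. PLEKHO2 and TCEA2, a transcription elongation factor, were also enriched in both replicates numbered 2 and in no other library. PLEKHO2 had log2 folds of 3.44, 4.17, 1.62 and 3.89, and TCEA2 had 3.12, 4.26, 3.53 and 4.08. Control replicate 1 in both genes, and TGFβ1 replicate 1 in TCEA2, passed the fold limit and missed the p limit. MFGE8, a secreted adaptor for apoptotic cells, had 1.84, 4.02, 3.46 and 2.35, and was enriched in control replicate 2 and TGFβ1 replicate 1.

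RBFOX2, a splicing regulator, had listed peaks from 582.5 nt from its 3′ end in the control list, with a log2 fold of 8.29 there, above every listed 3′ end peak within 500 nt.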
